A study of Homo sapiens with 9 samples.

Results

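The solute carrier (SLC) genes that ES-2 cells express at an appreciable level are described here. A protein-coding gene was taken as a member if its symbol is SLC, digits, 1 letter and digits, and if its mean over the 3 control libraries was at least 1 FPKM (fragments per kilobase of gene length, scaled to library size). The rule kept 165 of the 364 protein-coding genes with such a symbol. Of the other 199 genes, 106 were at 0 in every control library. The members were thus chosen by their FPKM in control cells, and levels in control cells are given as a description. The genes nearest to the minimum on the inside were SLC26A11, SLC10A7 and SLC27A5, at 1.04, 1.03 and 1.01 FPKM, and those nearest on the outside were SLC25A30, SLC22A15 and SLC39A4, at 0.9998, 0.981 and 0.966 FPKM.

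Total RNA of ES-2, an established human ovarian carcinoma line, was sequenced after transfection with a control siRNA (siC), with siRNA directed at the mRNA-binding protein IGF2BP1 (siIGF2BP1) or with siRNA directed at the transcription factor SRF (siSRF). Each group has 3 libraries, prepared 72 h after transfection, and the labels name no other agent or genetic change. Each target was depleted with 1 siRNA pool, so an effect of the pool on other transcripts cannot be told apart from the loss of its target. The sources used here do not say whether libraries of a group came from separate cultures, and the p-values then measure only the spread between these samples.

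IGF2BP1 was at 12.8, 13.5 and 12.1 FPKM in siC and at 4.18, 4.14 and 4.02 FPKM in siIGF2BP1 (log2 fold change -1.61 ± 0.06703 (SE), adjusted p = 0.000141). SRF was at 13.6, 14.1 and 15.99 FPKM in siC and at 1.63, 1.36 and 1.42 FPKM in siSRF (log2 fold change -3.22 ± 0.107 (SE), adjusted p = 6.07e-05). It was also lower in siIGF2BP1, at 5.804, 5.42 and 6.799 FPKM (log2 fold change -1.26 ± 0.107 (SE), adjusted p = 0.00111). An exact permutation test of 3 libraries against 3 cannot go below p = 0.1. Each library holds between 6421764 and 9416175 reads on genes. The epithelial keratins KRT7, KRT8 and KRT18 were at 101, 8.81 and 43.4 FPKM in siC and the mesenchymal gene VIM at 1055 FPKM, while the epithelial markers KRT19, EPCAM, CDH1 and MUC16 were at or near 0 in all 9 libraries. The leukocyte genes PTPRC and CD3E were at 0 in every library.

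Solute carriers are membrane proteins that move amino acids, sugars, ions, metals, vitamins, nucleotides and mitochondrial metabolites across the plasma membrane and the membranes of organelles. They work as facilitators, which let a substrate run down its gradient, or as cotransporters and exchangers, which couple a substrate to the gradient of an ion or of another metabolite. Proliferating carcinoma cells depend on them for glucose, for essential amino acids and for the export of lactate. Some need a partner: SLC7A5 and SLC7A11 reach the cell surface as heterodimers with the heavy chain SLC3A2, and the lactate carrier SLC16A1 needs the chaperone basigin (BSG).

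The members belong to 42 families and were placed in 12 substrate groups by family, with single genes moved where the substrate is known to differ. Their median level in siC was 5.65 FPKM, beside 7.48 FPKM for the 10328 protein-coding genes of at least 1 FPKM. Of the members, 73 were below 5 FPKM and 24 at 20 FPKM or above. The highest levels in siC were those of the mitochondrial ADP/ATP exchangers SLC25A5 (133 ± 9.83 FPKM, SD over 3 libraries) and SLC25A6 (128 ± 3.61 FPKM). They were followed by the neutral amino acid carriers SLC38A2 (110.4 ± 7.46), SLC1A5 (89.8 ± 7.57) and SLC38A1 (51.9 ± 1.96). Next came SLC35B2 (49.1 ± 6.34), which brings the sulfate donor into the Golgi, the zinc importer SLC39A1 (40.3 ± 2.63), the nucleoside carrier SLC29A1 (39.01 ± 2.76), the mitochondrial 2-oxoglutarate carrier SLC25A11 (38.87 ± 2.29), the riboflavin carrier SLC52A2 (38.3 ± 3.61), the phosphate carrier SLC20A1 (37.1 ± 4.02) and SLC3A2 (34.7 ± 1.43). SLC25A5 and SLC25A6, SLC38A1 and SLC35B2, and each of the genes from SLC39A1 to SLC3A2 and the next in order differed by less than the larger SD of the pair. The 35 carriers of the SLC25 family held 31.0% of the summed FPKM of all members in siC and the 20 amino acid carriers 21.5%.

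**Figure D1:**
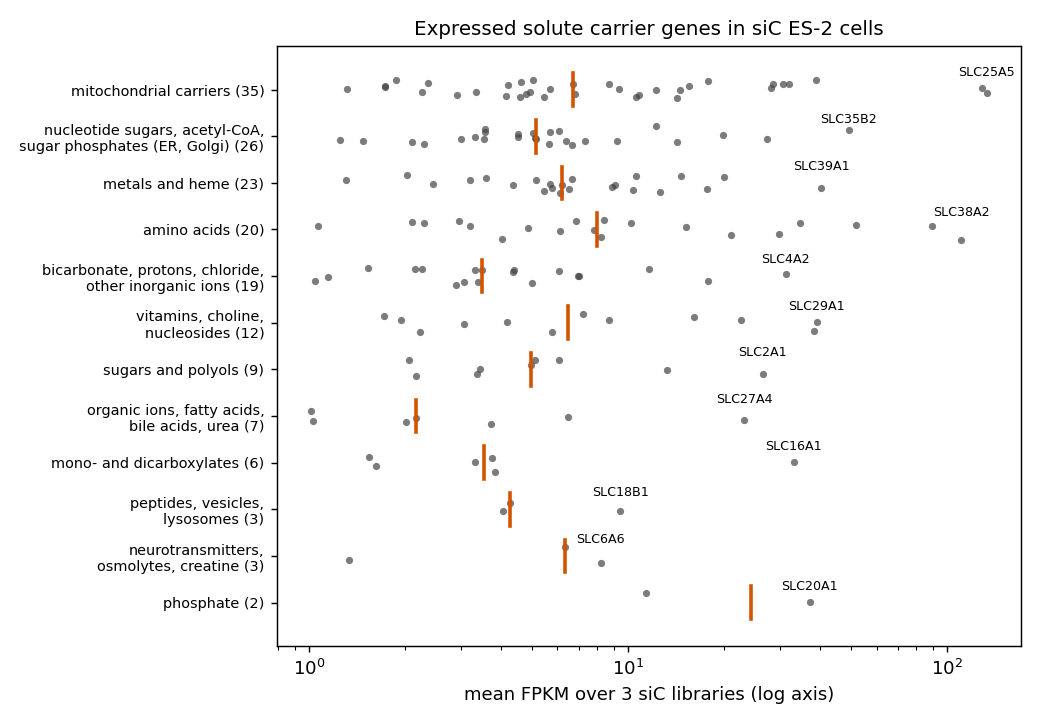
Mean FPKM over the 3 siC libraries (x axis, log scale) of the 165 members, 1 point per gene, by substrate group (y axis, number of members in brackets). Orange bars are group medians and the highest gene of each group is named. SLC25A5 at 133 FPKM is the highest, and the minimum of 1 FPKM is the membership rule.

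SRF binds the CArG box, and promoter letters were therefore searched in the RefSeq promoters of GRCh38.p14 (250 bases before to 50 after the start of a gene, both strands), which hold 134 of the 165 members. The CArG box occurred in 1.29% of all 27305 promoters and in 1 of the 134 member promoters, that of SLC25A46, a gene of the mitochondrial outer membrane. None of the 22 matched members lower in siSRF held it. The letters TGATGNAAN, the core of the composite site bound by ATF4 and C/EBP factors at amino acid response genes, occurred in 3.67% of all promoters, in 7 of the 134 member promoters in 4 of the 15 matched members lower in siIGF2BP1, in 1 of the 10 higher there, and in 1 of the 22 lower and none of the 11 higher in siSRF. These letters were searched after the values had been seen. The windows printed are those of SLC25A46 and of the 4 members lower in siIGF2BP1. The letters of the match are in capitals, on the strand of the gene. Windows of the other members with TGATGNAAN, among them SLC1A3, which also moved, are not printed. No member held both. A match is a description of the letters and not a binding site.
SLC25A46 (chr5:110738920-110738949, plus strand): gcaaccgtgcCCTTTAATGGttgccggaag
SLC38A1 (chr12:46266502-46266530, minus strand): cagacccgaaTGATGAAAAgggatcagct
SLC25A11 (chr17:4940100-4940128, minus strand): ttctcgcacgCTTCCATCAagctcctcct
SLC3A2 (chr11:62881725-62881748, plus strand): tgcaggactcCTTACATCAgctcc
SLC7A1 (chr13:29595663-29595691, minus strand): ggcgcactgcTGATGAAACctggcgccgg
In SLC25A11 and SLC3A2 the match lies on the opposite strand and is read here as its reverse complement. The same letters also occurred in SLC1A3, which was higher in siIGF2BP1, and in SLC39A11 and SLC27A5, which passed the test in no comparison.

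Knockdown of either factor changed a minority of the solute carrier genes and did so in both directions. Upon IGF2BP1 depletion, 17 members (10.3%) were lower and 13 (7.88%) higher than in siC by limma at an adjusted p of at most 0.01, where 7.16% of all protein-coding genes of at least 1 FPKM in siC were lower and 6.2% higher. Upon SRF depletion, 27 members (16.4%) were lower and 13 (7.88%) higher, where 10.4% of these genes were lower and 13.1% higher. The median log2 fold change of the members was -0.05 in siIGF2BP1 and -0.04 in siSRF, beside -0.03 and 0.03 for all genes of that level. Both comparisons share the siC libraries, which also set the membership. The direct comparison of the knockdowns used no siC library. In it 26 members (15.8%) were lower in siIGF2BP1 than in siSRF and 28 (17.0%) higher, where 21.8% of all genes of that level were lower and 15.4% higher, and the members' median difference was 0.00. All 165 members were tested in each comparison, 71 passed in at least 1 of them and 94 in none. Of the calls in siIGF2BP1, 7 of the 17 lower and 1 of the 13 higher held in all 6 fits that left out 1 library, as did 13 of 27 and 7 of 13 in siSRF. In bulk RNA, fewer cells of a kind and less RNA per cell cannot be told apart. The 21 ABC transporter genes of the same level, a separate family of pumps driven by ATP, had 1 lower and 2 higher in siIGF2BP1 and 3 lower and 1 higher in siSRF.

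Members that fell in siSRF were richer in GC than those that rose, with a median GC content of 54.4% against 41.6% and 47.4% for members not called. Over all protein-coding genes of that level the medians were 55.0%, 41.4% and 47.3%. When each library was corrected for GC content and gene length, 25 of the 27 lower and 12 of the 13 higher calls in siSRF remained, as did 15 of the 17 lower and 11 of the 13 higher calls in siIGF2BP1. SLC25A46, the member with the CArG letters, lost its call in siSRF there, and its log2 fold change went from 0.41 to 0.11 (adjusted p = 0.219).

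**Figure D2:**
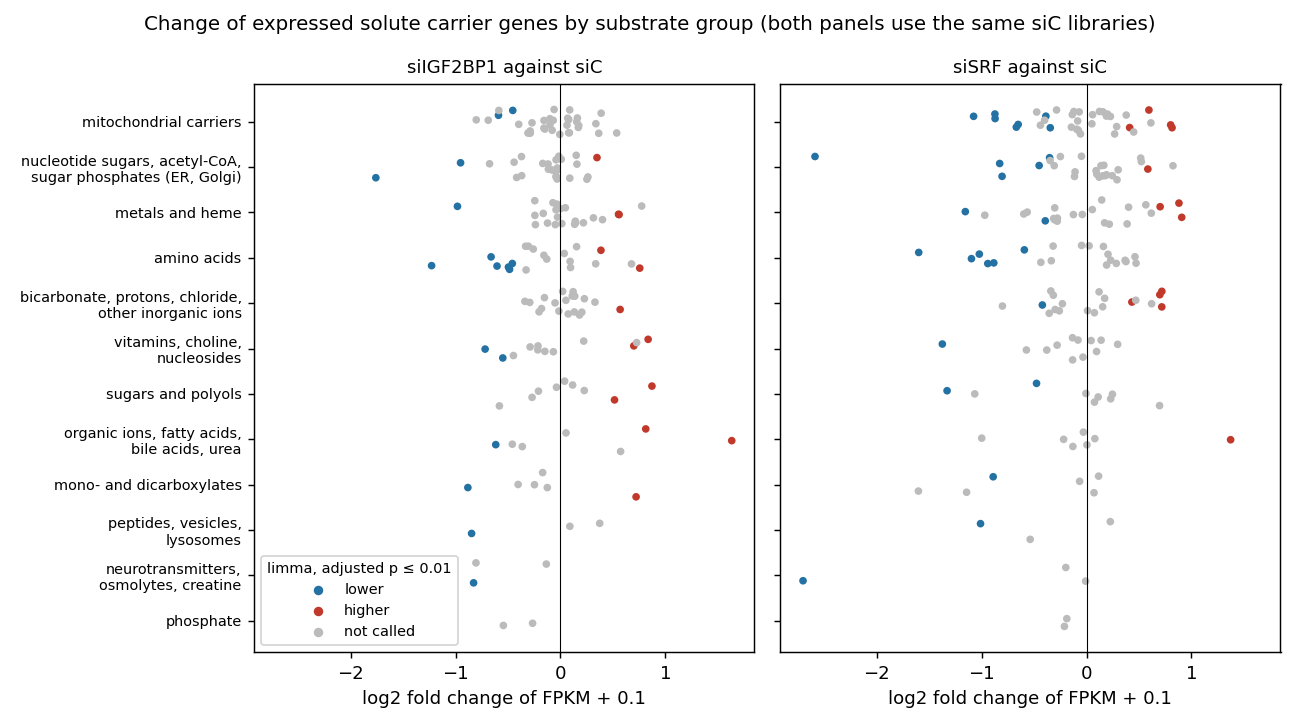
Log2 fold change of FPKM + 0.1 against siC (x axis) of the 165 members by substrate group (y axis), 1 point per gene, for siIGF2BP1 (left) and siSRF (right), which share the siC libraries. Blue points are called lower and red points higher by limma at an adjusted p of at most 0.01, and grey points are not called. Calls in the amino acid group are mostly lower, 6 of 8 in siIGF2BP1 and 6 of 6 in siSRF. Of its 20 members 30% are lower in each panel, and the group median is -0.21 in siIGF2BP1 and -0.01 in siSRF. Over all protein-coding genes of at least 1 FPKM in siC, 7.16% are lower in siIGF2BP1 and 10.4% in siSRF.

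Amino acid carriers that passed the test were mostly lower than in siC. Of the 20 members, 6 were lower and 2 higher in siIGF2BP1, and 6 were lower and none higher in siSRF. As shares, 30% were lower and 10% higher in siIGF2BP1, beside 7.16% and 6.2% of all protein-coding genes of at least 1 FPKM in siC. In siSRF 30% were lower and 0% higher, beside 10.4% and 13.1% of those genes. The median log2 fold change of the 20 members was -0.21 in siIGF2BP1, with 12 values negative and 8 positive. In siSRF it was -0.01, with 10 negative and 10 positive, so the group as a whole did not shift there. SLC7A5 and SLC7A1 were lower in both knockdowns, and both comparisons share the siC libraries. SLC7A5 (LAT1, chromosome 16, 87830023 to 87869507, minus strand, GENCODE release 44 on GRCh38), the importer of leucine and other large neutral amino acids, was at 28.9, 30.8 and 29.1 FPKM in siC, at 14.7, 11.3 and 11.99 FPKM in siIGF2BP1 and at 15.5, 15.9 and 16.6 FPKM in siSRF. No knockdown library reached a siC library. The level was 42.7% of siC in siIGF2BP1 (log2 fold change -1.23 ± 0.101 (SE), adjusted p = 0.00101) and 54.02% in siSRF (log2 fold change -0.88 ± 0.0485 (SE), adjusted p = 0.000311). Part of the SLC7A5 sequence has a near-identical copy in the pseudogene SLC7A5P1. That copy was at 7.62, 8.22 and 8.50 FPKM in siC, at 5.10, 5.11 and 6.60 FPKM in siIGF2BP1 and at 5.22, 5.31 and 8.34 FPKM in siSRF. How shared reads were split was not tested. SLC7A1 (CAT1), the carrier of arginine and lysine, was at 20.2, 22.6 and 20.3 FPKM in siC, at 14.2, 12.5 and 13.1 FPKM in siIGF2BP1 (log2 fold change -0.66 ± 0.0729 (SE), adjusted p = 0.00262) and at 13.6, 14.6 and 13.4 FPKM in siSRF (log2 fold change -0.59 ± 0.0642 (SE), adjusted p = 0.00171). Its levels in both knockdowns lay below every siC library and did not pass the test against each other (-0.07, adjusted p = 0.478). The call of SLC7A1 held in 2 of 6 fits without 1 library in siIGF2BP1 and in 5 of 6 in siSRF.

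SLC3A2, the heavy chain that SLC7A5 needs at the membrane, did not fall in siSRF. It was at 33.2, 36.1 and 34.7 FPKM in siC, fell to 22.9, 21.8 and 23.5 FPKM in siIGF2BP1 (log2 fold change -0.61 ± 0.05203 (SE), adjusted p = 0.00116) and was at 39.1, 41.1 and 41.8 FPKM in siSRF (log2 fold change 0.23 ± 0.0482 (SE), adjusted p = 0.0173). The siSRF libraries lay above all siC libraries without passing the test, and the knockdowns differed by -0.84 on the log2 scale (adjusted p = 7.33e-05). Per unit of length, the level of SLC7A5 relative to SLC3A2 was 0.839 to 0.869 in the siC libraries, 0.510 to 0.638 in siIGF2BP1 and 0.386 to 0.397 in siSRF. The 3 ranges do not overlap.

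SLC1A5, SLC38A2 and SLC38A1, carriers of glutamine and other neutral amino acids, fell in siIGF2BP1. SLC1A5 (ASCT2) was at 81.3, 95.8 and 92.4 FPKM in siC and at 65.7, 61.1 and 63.8 FPKM in siIGF2BP1 (log2 fold change -0.50 ± 0.0704 (SE), adjusted p = 0.00625). SLC38A2 (SNAT2) was at 115, 102 and 115 FPKM in siC and at 77.3, 82.3 and 80.8 FPKM in siIGF2BP1 (log2 fold change -0.46 ± 0.0604 (SE), adjusted p = 0.00478). SLC38A1 (SNAT1) was at 51.6, 50.05 and 53.95 FPKM in siC and at 37.2, 37.7 and 36.2 FPKM in siIGF2BP1 (log2 fold change -0.49 ± 0.0443 (SE), adjusted p = 0.001398). Each kept between 70.7% and 72.6% of its siC level, with no overlap between the groups. In siSRF none of the 3 genes passed the test. SLC1A5 was at 70.8, 72.1 and 69.9 FPKM there, below every siC library (log2 fold change -0.34 ± 0.0659 (SE), adjusted p = 0.01395). SLC38A2 was at 131, 123 and 127 FPKM, above every siC library (log2 fold change 0.21 ± 0.0597 (SE), adjusted p = 0.0532), and SLC38A1 at 51.3, 49.5 and 49.9 FPKM (log2 fold change -0.05 ± 0.04203 (SE), adjusted p = 0.491, 95% interval -0.15 to 0.05). The calls of SLC1A5 and SLC38A2 in siIGF2BP1 held in 1 of 6 and 1 of 6 fits that left out 1 library (adjusted p up to 0.0308 and 0.02602) and that of SLC38A1 in 5 of 6, while those of SLC7A5 and SLC3A2 held in all 6.

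The amino acid carriers lower in siSRF also included SLC1A4, SLC7A11, SLC38A10 and SLC43A1. SLC1A4 (ASCT1), a carrier of serine, alanine and threonine, was at 4.74, 4.37 and 5.3999 FPKM in siC and at 1.41, 1.61 and 1.54 FPKM in siSRF (log2 fold change -1.60 ± 0.123 (SE), adjusted p = 0.000618). SLC7A11 (xCT), which imports cystine in exchange for glutamate, was at 10.3, 9.26 and 11.1 FPKM in siC and at 5.22, 5.35 and 5.23 FPKM in siSRF (log2 fold change -0.94 ± 0.0805 (SE), adjusted p = 0.000851). SLC38A10 was at 14.5, 15.8 and 15.3 FPKM in siC and at 6.56, 7.24 and 7.401 FPKM in siSRF (log2 fold change -1.10 ± 0.06797 (SE), adjusted p = 0.000392). SLC43A1 (LAT3), a further carrier of large neutral amino acids, was at 48.4% of its siC level in siSRF (log2 fold change -1.02 ± 0.0908 (SE), adjusted p = 0.000937) and was chosen after its value was seen. None of these 4 genes passed in siIGF2BP1, and each was higher in siIGF2BP1 than in siSRF, by 1.27 for SLC1A4, 0.64 for SLC7A11, 0.97 for SLC38A10 and 0.76 for SLC43A1 on the log2 scale (adjusted p = 0.000364, 0.000925, 0.0001499 and 0.00399). The glutamate carrier SLC1A3 (EAAT1) rose in siIGF2BP1, from 2.88, 3.08 and 2.87 FPKM to 5.33, 4.62 and 5.18 FPKM (log2 fold change 0.76 ± 0.0952 (SE), adjusted p = 0.00413), and SLC7A6 (y+LAT2), named after its value was seen, rose from 7.904, 8.398 and 8.27 FPKM to 11.1, 10.7 and 10.5 FPKM (log2 fold change 0.39 ± 0.0566 (SE), adjusted p = 0.00693). Both calls were lost in each fit without 1 library. The siSRF libraries of SLC1A3 spread from 3.10 to 5.03 FPKM (log2 fold change 0.46 ± 0.183 (SE), adjusted p = 0.1297).

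**Figure D3:**
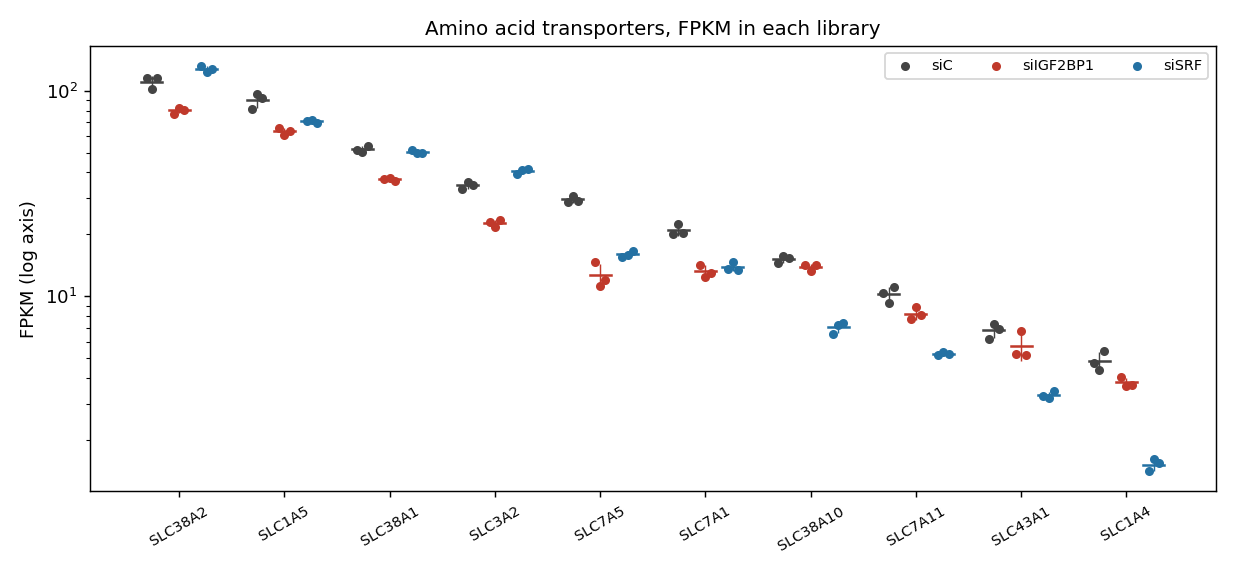
FPKM (y axis, log scale) of 10 amino acid carriers in each library (points), with the mean (horizontal bar) and SD (vertical line) of the 3 libraries of siC (grey), siIGF2BP1 (red) and siSRF (blue). SLC7A5 and SLC7A1 lie below siC in both knockdowns, SLC38A2, SLC1A5, SLC38A1 and SLC3A2 are lowest in siIGF2BP1, and SLC38A10, SLC7A11, SLC43A1 and SLC1A4 are lowest in siSRF.

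Of the 9 sugar carriers, SLC2A3 and SLC50A1 (22.2%) were higher and none lower in siIGF2BP1, and SLC2A1 and SLC2A8 (22.2%) were lower and none higher in siSRF. Among all protein-coding genes of at least 1 FPKM in siC, 7.16% were lower and 6.2% higher in siIGF2BP1. The corresponding shares in siSRF were 10.4% and 13.1%. The median log2 fold change of the sugar carriers was 0.04 in siIGF2BP1 and 0.08 in siSRF. SLC2A3 (GLUT3), a glucose carrier of high affinity, was at 4.89, 5.21 and 4.74 FPKM in siC, at 8.39, 9.73 and 9.33 FPKM in siIGF2BP1 (log2 fold change 0.87 ± 0.0825 (SE), adjusted p = 0.00158) and at 6.14, 5.93 and 5.59 FPKM in siSRF (log2 fold change 0.25 ± 0.0759 (SE), adjusted p = 0.0631). SLC2A1 (GLUT1), the main basal glucose carrier of most cells, was at 26.4, 26.6 and 26.2 FPKM in siC, at 27.98, 26.2 and 27.2 FPKM in siIGF2BP1 and at 17.99, 19.8 and 19.1 FPKM in siSRF. Its siSRF libraries lay below all others (log2 fold change -0.48 ± 0.0479 (SE), adjusted p = 0.00137), and in siIGF2BP1 the 95% interval of its log2 fold change ran from -0.06 to 0.14. SLC2A8 (GLUT8), a glucose carrier of internal membranes, was at 3.74, 3.41 and 2.92 FPKM in siC and at 1.46, 1.06 and 1.31 FPKM in siSRF (log2 fold change -1.33 ± 0.169 (SE), adjusted p = 0.00298). SLC50A1, named after its value was seen, went from 13.7, 12.2 and 13.8 FPKM in siC to 18.4, 17.9 and 20.6 FPKM in siIGF2BP1 (log2 fold change 0.52 ± 0.0785 (SE), adjusted p = 0.007897), a call lost in each fit without 1 library. The call of SLC2A8 held in 2 of 6 such fits. Between the knockdowns, 5 of the 9 members were higher in siIGF2BP1, namely SLC2A1, SLC2A3, SLC2A6, SLC2A8 and SLC50A1, and 1, SLC45A4, was lower.

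SLC45A4 stood at 1.81, 2.15 and 2.18 FPKM in siC, at 1.39, 1.13 and 1.49 FPKM in siIGF2BP1 and at 3.71, 3.08 and 3.36 FPKM in siSRF, the most negative difference of any member between the knockdowns (log2 fold change -1.28 ± 0.1502 (SE), adjusted p = 0.00122). It passed against siC in neither. The myo-inositol carrier SLC5A3 passed in no comparison, at 6.07, 6.58 and 7.14 FPKM.

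Among the 6 carriers of mono- and dicarboxylates, SLC16A1 (MCT1, chromosome 1, 112911847 to 112957593, minus strand), which carries lactate and pyruvate with a proton, was at 31.96, 31.1 and 36.1 FPKM in siC, at 29.5, 29.3 and 31.8 FPKM in siIGF2BP1 and at 18.2, 17.2 and 17.8 FPKM in siSRF. The siSRF libraries lay at 53.7% of siC (log2 fold change -0.89 ± 0.0658 (SE), adjusted p = 0.000553), below every other library, and siIGF2BP1 overlapped with siC (log2 fold change -0.13 ± 0.06996 (SE), adjusted p = 0.294). The antisense gene SLC16A1-AS1, whose reads the counting may not have kept apart, was at 3.12, 3.03 and 3.36 FPKM in siC and at 4.41, 3.91 and 4.32 FPKM in siSRF. BSG, its chaperone, also fell in siSRF, from 146, 158 and 159 FPKM to 113, 113 and 110.1 FPKM (log2 fold change -0.46 ± 0.0468 (SE), adjusted p = 0.00141). In siIGF2BP1, BSG was at 180.4, 162 and 181 FPKM (log2 fold change 0.18 ± 0.0635 (SE), adjusted p = 0.1204). SLC16A9, a carnitine carrier, fell in siIGF2BP1 from 4.04, 3.72 and 3.68 FPKM to 1.83, 2.198 and 2.05 FPKM (log2 fold change -0.88 ± 0.116 (SE), adjusted p = 0.00471) and was at 4.18, 3.81 and 4.44 FPKM in siSRF. SLC13A3, a sodium-coupled carrier of dicarboxylates, rose in siIGF2BP1 from 3.23, 3.38 and 3.33 FPKM to 5.28, 5.41 and 5.91 FPKM (log2 fold change 0.72 ± 0.0836 (SE), adjusted p = 0.00316) and was at 2.89, 3.48 and 3.14 FPKM in siSRF. Both differed between the knockdowns, by -0.999 and 0.79 on the log2 scale (adjusted p = 0.00113 and 0.00153). Their calls in siIGF2BP1 were lost whenever 1 library was left out, with adjusted p up to 0.0235 and 0.0193, whereas the call of SLC16A1 in siSRF held in all 6 such fits.

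The 7 carriers of organic ions, fatty acids, bile acids and urea had 1 lower (14.3%) and 2 higher (28.6%) in siIGF2BP1 and 1 higher (14.3%) in siSRF. Over all protein-coding genes of at least 1 FPKM in siC, 7.16% were lower and 6.2% higher in siIGF2BP1. In siSRF these shares were 10.4% and 13.1%. The fatty acid carrier SLC27A4, named after its value was seen, fell in siIGF2BP1 from 22.6, 24.2 and 22.5 FPKM to 15.3, 14.7 and 15.1 FPKM (log2 fold change -0.62 ± 0.0496 (SE), adjusted p = 0.0009495). The ergothioneine carrier SLC22A4 rose there from 1.803, 2.08 and 2.16 FPKM to 3.25, 3.77 and 3.82 FPKM (log2 fold change 0.81 ± 0.127 (SE), adjusted p = 0.00873). The call of SLC22A4 was lost in each fit without 1 library (adjusted p up to 0.0438).

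The SLC25 family, carriers of the inner mitochondrial membrane apart from a few in other membranes, was the largest group with 35 members. In siIGF2BP1 2 of them (5.71%) were lower and none higher, and in siSRF 7 (20%) were lower and 4 (11.4%) higher. Of all protein-coding genes of at least 1 FPKM in siC, 7.16% were lower and 6.2% higher in siIGF2BP1. In siSRF 10.4% of those genes were lower and 13.1% higher. SLC25A1, which exports citrate for the making of fatty acids and sterols in the cytosol, was at 25.9, 29.98 and 29.2 FPKM in siC, at 34.8, 27.9 and 33.3 FPKM in siIGF2BP1 and at 12.6, 14.1 and 13.4 FPKM in siSRF. The siSRF level was 47.2% of siC (log2 fold change -1.08 ± 0.0732 (SE), adjusted p = 0.000473), and the knockdowns differed by 1.25 on the log2 scale (adjusted p = 0.000203). The phosphate carrier SLC25A3 fell from 31.3, 31.5 and 29.1 FPKM to 23.4, 24.8 and 24.1 FPKM in siSRF (log2 fold change -0.35 ± 0.0491 (SE), adjusted p = 0.00435). The other members lower in siSRF were SLC25A5, SLC25A6, SLC25A10, SLC25A28 and SLC25A29. The call of SLC25A29 was lost in each fit without 1 library (adjusted p up to 0.02596) and with the GC and length correction (adjusted p = 0.01995), and that of SLC25A3 held in 1 of 6 fits without 1 library.

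The abundant ADP/ATP exchangers were both lower in siSRF, and SLC25A5 also in siIGF2BP1. SLC25A5 (ANT2) was at 139, 138 and 122 FPKM in siC, at 103, 90.3 and 97.8 FPKM in siIGF2BP1 (log2 fold change -0.46 ± 0.0738 (SE), adjusted p = 0.009903) and at 99.7, 104 and 100.5 FPKM in siSRF (log2 fold change -0.39 ± 0.06103 (SE), adjusted p = 0.00628). SLC25A6 (ANT3) was at 124, 132 and 128 FPKM in siC, at 155, 132 and 148 FPKM in siIGF2BP1 (log2 fold change 0.17 ± 0.0677 (SE), adjusted p = 0.149) and at 82.8, 83.3 and 78.4 FPKM in siSRF (log2 fold change -0.65 ± 0.0424 (SE), adjusted p = 0.000446). The knockdowns differed in SLC25A6 by 0.83 on the log2 scale (adjusted p = 0.000267). For SLC25A5 their difference was -0.07 (adjusted p = 0.401). The call of SLC25A5 in siIGF2BP1 sits at the threshold and was lost with another scaling (adjusted p = 0.0124), with the GC and length correction (0.0107) and in each fit without 1 library (up to 0.04201), and its call in siSRF held in 1 of 6 such fits. The 2-oxoglutarate and malate carrier SLC25A11 fell in siIGF2BP1, from 36.4, 40.97 and 39.2 FPKM to 28.2, 24.8 and 24.3 FPKM (log2 fold change -0.59 ± 0.0753 (SE), adjusted p = 0.00431), and was at 37.5, 34.6 and 33.4 FPKM in siSRF. Its call in siIGF2BP1 held in 1 of 6 fits without 1 library (adjusted p up to 0.0230).

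The SLC25 carriers that rose in siSRF were SLC25A20, SLC25A32, SLC25A33 and SLC25A46. The carnitine and acylcarnitine exchanger SLC25A20 went from 4.58, 4.9004 and 4.81 FPKM to 8.27, 9.08 and 8.08 FPKM (log2 fold change 0.82 ± 0.0733 (SE), adjusted p = 0.000972), with no overlap. The pyrimidine nucleotide carrier SLC25A33 went from 4.56, 6.3003 and 6.17 FPKM to 10.001, 9.88 and 9.75 FPKM (log2 fold change 0.80 ± 0.1298 (SE), adjusted p = 0.00687). Neither passed in siIGF2BP1, at 4.41, 5.46 and 5.301 FPKM and 4.03, 5.87 and 5.36 FPKM. The siSRF call of SLC25A33 held in 1 of 6 fits without 1 library (adjusted p up to 0.0327) and that of SLC25A20 in all 6. SLC25A17, a carrier of peroxisomes, passed against siC in neither knockdown but differed between them, at 3.498, 4.23 and 4.59 FPKM in siIGF2BP1 and 10.05, 7.26 and 7.92 FPKM in siSRF (log2 fold change -1.01 ± 0.153 (SE), adjusted p = 0.00346).

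Among the 23 carriers of metals and heme, the largest difference between the knockdowns was that of SLC39A14 (ZIP14), an importer of zinc, manganese and iron. It was at 17.98, 17.6 and 17.4 FPKM in siC, at 9.47, 7.84 and 9.47 FPKM in siIGF2BP1 (log2 fold change -0.98 ± 0.0849 (SE), adjusted p = 0.00118) and at 21.2, 20.1 and 20.4 FPKM in siSRF (log2 fold change 0.22 ± 0.0428 (SE), adjusted p = 0.01402). The siIGF2BP1 libraries lay at 50.5% of siC and the siSRF libraries above all siC libraries, and the knockdowns differed by -1.20 on the log2 scale (adjusted p = 0.000162). It was the only member of the group lower in siIGF2BP1. SLC30A1 (ZnT1), the zinc exporter of the plasma membrane, rose in both knockdowns, from 6.31, 5.67 and 5.35 FPKM in siC to 8.84, 8.66 and 8.13 FPKM in siIGF2BP1 (log2 fold change 0.56 ± 0.0832 (SE), adjusted p = 0.00729) and 11.5, 10.04 and 11.3 FPKM in siSRF (log2 fold change 0.91 ± 0.0886 (SE), adjusted p = 0.00125). So did SLC39A6 (ZIP6), from 10.7, 9.67 and 10.7 FPKM to 13.6, 15.7 and 16.4 FPKM (log2 fold change 0.55 ± 0.0871 (SE), adjusted p = 0.00887) and 17.5, 17.1 and 15.99 FPKM (log2 fold change 0.70 ± 0.0639 (SE), adjusted p = 0.00101). The calls of both genes in siIGF2BP1 were lost in each fit without 1 library (adjusted p up to 0.03298 and 0.0388). That of SLC30A1 in siIGF2BP1 was also lost with the GC and length correction (adjusted p = 0.0125).

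SLC30A6 (ZnT6), which works in the Golgi, rose in siSRF alone by the test, from 8.73, 9.03 and 9.41 FPKM in siC to 17.7, 16.4 and 16.2 FPKM (log2 fold change 0.88 ± 0.0578 (SE), adjusted p = 0.0004504), and was at 9.26, 9.22 and 9.58 FPKM in siIGF2BP1, a difference between the knockdowns of -0.84 on the log2 scale (adjusted p = 0.000105). SLC39A1 (ZIP1), the most abundant zinc importer, was at 37.6, 42.8 and 40.6 FPKM in siC, at 52.5, 47.7 and 50.2 FPKM in siIGF2BP1 (log2 fold change 0.31 ± 0.0637 (SE), adjusted p = 0.0211) and at 30.03, 30.05 and 31.9 FPKM in siSRF (log2 fold change -0.39 ± 0.0591 (SE), adjusted p = 0.00528). All siIGF2BP1 libraries were above, and all siSRF libraries below, those of siC. With the GC and length correction the log2 fold change of SLC39A1 in siSRF was -0.23, and the call remained (adjusted p = 0.00924). It held in 1 of 6 fits without 1 library (adjusted p up to 0.0285). SLC41A3, of the magnesium carrier family, fell in siSRF from 4.32, 4.7997 and 3.99 FPKM to 1.72, 2.197 and 1.81 FPKM (log2 fold change -1.16 ± 0.135 (SE), adjusted p = 0.00224). Its call held in 2 of 6 fits without 1 library (adjusted p up to 0.0113). Across the group, 1 member (4.35%) was lower and 2 (8.7%) higher in siIGF2BP1, and 2 (8.7%) were lower and 3 (13.0%) higher in siSRF. The shares over all protein-coding genes of at least 1 FPKM in siC were 7.16% lower and 6.2% higher in siIGF2BP1. They were 10.4% lower and 13.1% higher in siSRF.

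**Figure D4:**
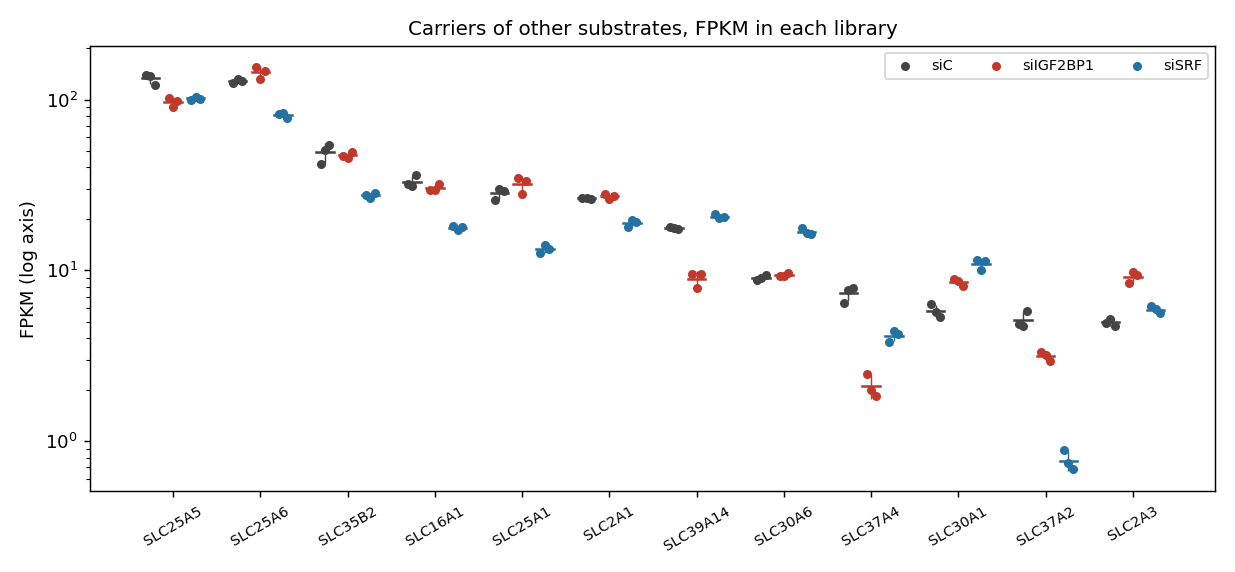
FPKM (y axis, log scale) of 12 carriers of other substrates in each library (points), with the mean (horizontal bar) and SD (vertical line) of the 3 libraries of siC (grey), siIGF2BP1 (red) and siSRF (blue). SLC37A2, SLC25A1, SLC16A1 and SLC35B2 are lowest in siSRF, SLC39A14 and SLC37A4 are lowest in siIGF2BP1, and SLC30A1 lies above siC in both.

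Of the 19 ion carriers, 1 was higher and none lower in siIGF2BP1. That is 5.26% higher, beside 6.2% of all protein-coding genes of at least 1 FPKM in siC. In siSRF 4 were higher and 1 lower, or 21.1% and 5.26%, beside 13.1% higher and 10.4% lower of those genes. The sodium bicarbonate cotransporter SLC4A7 (NBCn1), which loads base into the cell, was at 17.6, 16.8 and 18.7 FPKM in siC, at 17.9, 20.3 and 19.3 FPKM in siIGF2BP1 and at 29.3, 28.5 and 29.8 FPKM in siSRF (log2 fold change 0.72 ± 0.0531 (SE), adjusted p = 0.000553). The sodium, potassium and chloride cotransporter SLC12A2 (NKCC1) was at 5.94, 6.04 and 6.17 FPKM in siC, at 7.79, 7.75 and 7.34 FPKM in siIGF2BP1 (log2 fold change 0.33 ± 0.0623 (SE), adjusted p = 0.0168) and at 9.79, 9.804 and 10.5 FPKM in siSRF (log2 fold change 0.72 ± 0.0589 (SE), adjusted p = 0.000743). For both genes siSRF lay above siC and above siIGF2BP1 without overlap. SLC9A7, a sodium and proton exchanger of the Golgi network, rose in both knockdowns, from 11.3, 11.1 and 12.4 FPKM in siC to 17.04, 16.9 and 17.7 FPKM in siIGF2BP1 (log2 fold change 0.57 ± 0.0592 (SE), adjusted p = 0.00215) and 15.8, 15.6 and 15.5 FPKM in siSRF (log2 fold change 0.43 ± 0.0567 (SE), adjusted p = 0.00329). The calls of SLC9A7 held in 2 of 6 fits without 1 library in siIGF2BP1 and in 1 of 6 in siSRF. SLC12A8 rose in siSRF (log2 fold change 0.70 ± 0.0818 (SE), adjusted p = 0.00224), a call that held in 3 of 6 such fits. SLC26A2, a sulfate carrier named after its value was seen, was the only one lower in siSRF (log2 fold change -0.42 ± 0.06705 (SE), adjusted p = 0.00651), a call lost in each fit without 1 library (adjusted p up to 0.0264).

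The members of the endoplasmic reticulum and Golgi, which carry nucleotide sugars, acetyl-CoA or sugar phosphates and include genes of unknown substrate, had 2 lower and 1 higher of 26 in siIGF2BP1, and 5 lower and 1 higher in siSRF. As shares, 7.69% were lower and 3.85% higher in siIGF2BP1, and 19.2% and 3.85% in siSRF. All protein-coding genes of at least 1 FPKM in siC had 7.16% lower and 6.2% higher in siIGF2BP1, and 10.4% and 13.1% in siSRF. The median log2 fold change of the 26 members was -0.04 in siIGF2BP1 and 0.11 in siSRF. The glucose-6-phosphate carrier SLC37A4 (chromosome 11, 119023751 to 119030906, minus strand), which feeds the release of glucose in the endoplasmic reticulum, showed the deepest fall of any member in siIGF2BP1. It was at 6.46, 7.64 and 7.87 FPKM in siC, at 2.47, 1.99 and 1.83 FPKM in siIGF2BP1 (log2 fold change -1.76 ± 0.142 (SE), adjusted p = 0.000955) and at 3.81, 4.38 and 4.23 FPKM in siSRF (log2 fold change -0.81 ± 0.104 (SE), adjusted p = 0.00314). The 3 groups did not overlap, and siIGF2BP1 was lower than siSRF by the test (-0.96, adjusted p = 0.00278). The call of SLC37A4 held in all 6 fits without 1 library in siIGF2BP1, in 1 of 6 in siSRF and in 2 of 6 between the knockdowns. Its relative SLC37A2 was at 4.83, 4.74 and 5.79 FPKM in siC, at 3.34, 3.185 and 2.95 FPKM in siIGF2BP1 (log2 fold change -0.68 ± 0.112 (SE), adjusted p = 0.0106) and at 0.87996, 0.7404 and 0.681 FPKM in siSRF (log2 fold change -2.59 ± 0.154 (SE), adjusted p = 0.000349). It kept 14.99% of its siC level in siSRF and differed between the knockdowns by 1.91 on the log2 scale of FPKM + 0.1 (95% interval 1.54 to 2.29, adjusted p = 0.000276).

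SLC35B2 was at 42.1, 50.7 and 54.5 FPKM in siC, at 46.6, 45.7 and 49.5 FPKM in siIGF2BP1 and at 27.5, 26.6 and 28.3 FPKM in siSRF (log2 fold change -0.83 ± 0.0964 (SE), adjusted p = 0.00223). Its call in siSRF held in 2 of 6 fits without 1 library (adjusted p up to 0.0148). SLC35D1, which brings UDP-glucuronic acid and UDP-N-acetylgalactosamine into the endoplasmic reticulum, fell in siIGF2BP1 from 3.47, 3.58 and 3.52 FPKM to 1.95, 1.54 and 1.86 FPKM (log2 fold change -0.95 ± 0.128 (SE), adjusted p = 0.00513), a call lost in each fit without 1 library (adjusted p up to 0.0242). It was at 2.57, 2.87 and 2.82 FPKM in siSRF, log2 fold change -0.35 ± 0.0935 (SE), adjusted p = 0.0413. SLC35G2, of unknown substrate, rose in siSRF (log2 fold change 0.59 ± 0.103 (SE), adjusted p = 0.00943), a call lost with another scaling (adjusted p = 0.0127) and in each fit without 1 library. The acetyl-CoA carrier SLC33A1 and the ATP importer of the endoplasmic reticulum SLC35B1 passed in no comparison, and the groups of SLC33A1 lay between 4.41 and 4.84 FPKM on average.

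Of the 12 carriers of vitamins, choline and nucleosides, 2 (16.7%) were lower and 2 (16.7%) higher in siIGF2BP1, and 1 (8.33%) was lower in siSRF. Beside them, 7.16% of all protein-coding genes of at least 1 FPKM in siC were lower and 6.2% higher in siIGF2BP1. For siSRF those shares were 10.4% and 13.1%. SLC43A3, a purine nucleobase carrier, fell from 23.2, 22.9 and 21.7 FPKM in siC to 13.5, 13.2 and 14.4 FPKM in siIGF2BP1 (log2 fold change -0.72 ± 0.056005 (SE), adjusted p = 0.000863) and was at 24.98, 24.1 and 25.7 FPKM in siSRF. The multivitamin carrier SLC5A6, named after its value was seen, fell from 15.8, 16.6 and 15.9 FPKM to 10.6, 11.03 and 11.2 FPKM (log2 fold change -0.55 ± 0.05101 (SE), adjusted p = 0.00148) and was at 16.1, 16.2 and 17.4 FPKM in siSRF. Both differed between the knockdowns, by -0.86 and -0.59 on the log2 scale (adjusted p = 9.13e-05 and 0.000368), and their calls held in every fit without 1 library. The choline carrier SLC44A1 rose in siIGF2BP1, from 3.07, 2.97 and 3.15 FPKM to 4.61, 5.19 and 5.34 FPKM (log2 fold change 0.70 ± 0.0936 (SE), adjusted p = 0.00508), and the lysosomal carrier SLC46A3 from 1.93, 2.46 and 2.31 FPKM to 3.87, 4.32 and 3.94 FPKM (log2 fold change 0.84 ± 0.126 (SE), adjusted p = 0.007698). Both calls were lost in each fit without 1 library (adjusted p up to 0.0283 and 0.0352). The nucleoside carrier SLC29A2 was at 1.78, 1.84 and 1.52 FPKM in siC and at 0.567, 0.686 and 0.549 FPKM in siSRF (log2 fold change -1.38 ± 0.194 (SE), adjusted p = 0.00425), a call lost in each fit without 1 library, whereas its more abundant relative SLC29A1 passed in no comparison. The folate carrier SLC19A1 and the riboflavin carrier SLC52A2 passed in none either.

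Of the 3 carriers of neurotransmitters, osmolytes and creatine, the glycine carrier SLC6A9 had the most negative log2 fold change of any member in siSRF at this pseudocount, with SLC37A2 lower at a pseudocount of 1. It was at 1.497, 1.28 and 1.23 FPKM in siC, at 0.581, 0.797 and 0.801 FPKM in siIGF2BP1 (log2 fold change -0.81 ± 0.218 (SE), adjusted p = 0.0546) and at 0.0815, 0.128 and 0.158 FPKM in siSRF (log2 fold change -2.70 ± 0.289 (SE), adjusted p = 0.00164). The knockdowns differed by 1.90 at this pseudocount and by 2.51 at a pseudocount of 0.01, beside 2.03 for SLC37A2. The 3 groups did not overlap, but the siSRF values rest on as few as 3 reads in a library. The creatine carrier SLC6A8 fell in siIGF2BP1, from 5.76, 7.12 and 6.19 FPKM to 3.56, 3.99 and 3.07 FPKM (log2 fold change -0.83 ± 0.1299 (SE), adjusted p = 0.00879), and was at 5.99, 6.58 and 6.32 FPKM in siSRF. Its near-identical pseudogene SLC6A10P was listed at 0 in every siC library. The call of SLC6A8 was lost with the GC and length correction (adjusted p = 0.0189) and in each fit without 1 library. The taurine carrier SLC6A6 passed in no comparison. Of the 3 carriers of peptides, vesicles and lysosomes, the sialic acid exporter of lysosomes SLC17A5 fell in both knockdowns, from 3.99, 4.29 and 4.49 FPKM in siC to 2.21, 2.36 and 2.39 FPKM in siIGF2BP1 (log2 fold change -0.85 ± 0.09902 (SE), adjusted p = 0.00324) and 2.14, 2.01 and 2.03 FPKM in siSRF (log2 fold change -1.01 ± 0.0979 (SE), adjusted p = 0.00121). Its call in siIGF2BP1 was lost in each fit without 1 library and that in siSRF held in all 6. The phosphate carrier SLC20A1 did not pass, at 39.4, 39.4 and 32.5 FPKM in siC and 27.5, 24.7 and 23.8 FPKM in siIGF2BP1 (log2 fold change -0.54 ± 0.0958 (SE), adjusted p = 0.0129), though its groups did not overlap.

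**Figure D5:**
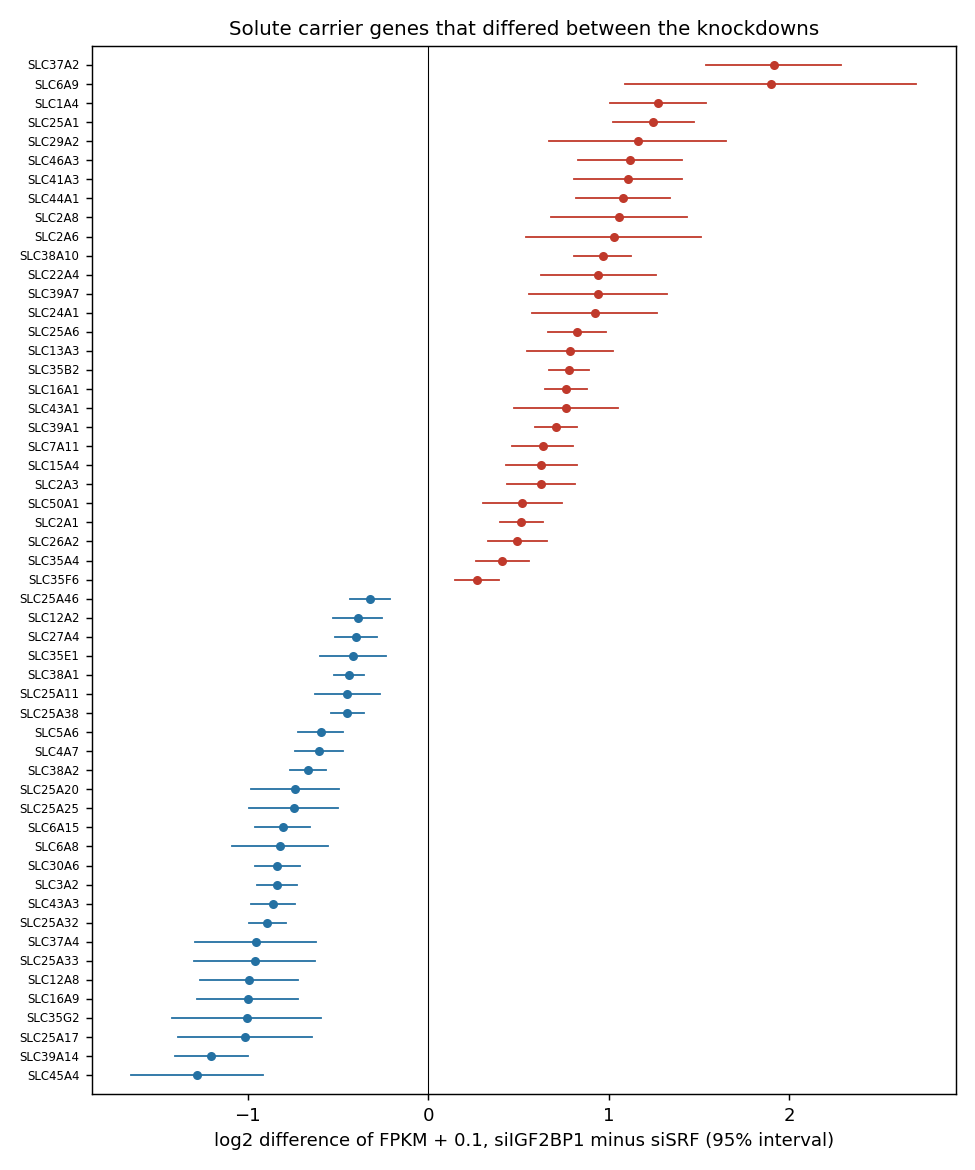
Log2 difference of FPKM + 0.1 between the knockdowns (x axis, siIGF2BP1 minus siSRF), with its 95% interval, for the 54 members called in this comparison by limma, 1 row per gene. The 28 red genes are higher and the 26 blue genes lower in siIGF2BP1, from SLC45A4 at -1.28 to SLC37A2 at 1.91.

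In the direct comparison the SLC25 family had 8 of 35 members lower and 2 higher in siIGF2BP1 than in siSRF, the sugar carriers 1 of 9 lower and 5 higher, and the amino acid carriers 4 of 20 lower and 4 higher. As shares these are 22.9% and 5.71%, 11.1% and 55.6%, and 20% and 20%, beside 21.8% lower and 15.4% higher over all genes of that level, so the lower share of the SLC25 family is near that of all genes. The 4 amino acid carriers lower in siIGF2BP1 than in siSRF were SLC3A2, SLC38A1, SLC38A2 and SLC6A15, and the 4 higher were SLC1A4, SLC38A10, SLC43A1 and SLC7A11. SLC7A5, the carrier with the deepest fall of the group in siIGF2BP1, did not pass between the knockdowns (log2 fold change -0.35 ± 0.101 (SE), adjusted p = 0.0431). In 14 members (8.48%) the siIGF2BP1 and siSRF libraries lay on opposite sides of every siC library and differed by the test, beside 14.7% of all genes of that level.

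Other genes of transport were read from 3 fixed lists, whose counts stand beside 5.91% lower and 5.52% higher in siIGF2BP1, and 8.67% lower and 11.1% higher in siSRF, over all protein-coding genes tested. Of 40 transporter genes outside the SLC names, 35 were tested in siIGF2BP1, with 1 lower and 1 higher, and 34 in siSRF, with 5 lower and none higher. The organic anion carrier SLCO4A1 fell from 12.7, 14.4 and 14.9 FPKM to 4.83, 3.96 and 5.01 FPKM in siIGF2BP1 (log2 fold change -1.59 ± 0.112 (SE), adjusted p = 0.000601). UNC93B1, which escorts endosomal Toll-like receptors, fell from 4.74 to 1.94 FPKM in siSRF (log2 fold change -1.24 ± 0.133 (SE), adjusted p = 0.00164). Of 26 partners and trafficking factors, 25 were tested, with 2 lower and 2 higher in siIGF2BP1, and 3 lower and 6 higher in siSRF. TXNIP, an arrestin that withdraws GLUT1 from the membrane, rose from 11.9, 12.3 and 12.4 FPKM to 24.9, 25.6 and 27.2 FPKM in siIGF2BP1 (log2 fold change 1.08 ± 0.0517 (SE), adjusted p = 0.000185) and to 39.4, 39.9 and 37.7 FPKM in siSRF (log2 fold change 1.67 ± 0.0434 (SE), adjusted p = 3.63e-05). In siSRF the kinase SGK1 (0.98, adjusted p = 0.000399) and the ubiquitin ligases NEDD4 (1.05, adjusted p = 0.000473) and NEDD4L (0.59, adjusted p = 0.0018) rose on the log2 scale.

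Of 20 regulators of transporter genes, 3 were lower and 4 higher of 19 tested in siIGF2BP1, and 2 lower and 5 higher of 18 in siSRF. SREBF1, a regulator of lipid synthesis genes, fell in both, from 13.3, 14.3 and 12.9 FPKM to 8.07, 7.38 and 7.34 FPKM (log2 fold change -0.82 ± 0.0702 (SE), adjusted p = 0.00113) and 6.65, 6.23 and 7.13 FPKM (log2 fold change -1.01 ± 0.0746 (SE), adjusted p = 0.000553). SREBF2, the regulator of sterol genes, rose to 1.49-fold of siC in siIGF2BP1 (log2 fold change 0.58 ± 0.0523 (SE), adjusted p = 0.00136) and fell to 63.3% in siSRF (log2 fold change -0.65 ± 0.0635 (SE), adjusted p = 0.00123). HIF1A rose in both, by 0.56 and 0.67 on the log2 scale (adjusted p = 0.000713 and 0.000508). ATF4, which activates many amino acid carriers, was at 88.3, 90.97 and 97.7 FPKM in siC, at 75.7, 67.6 and 76.8 FPKM in siIGF2BP1 (log2 fold change -0.33 ± 0.0667 (SE), adjusted p = 0.0204) and at 81.01, 83.3 and 81.5 FPKM in siSRF (log2 fold change -0.17 ± 0.0475 (SE), adjusted p = 0.0462), with every knockdown library below siC and neither difference past the test. CEBPB fell in siIGF2BP1 (log2 fold change -0.64 ± 0.0668 (SE), adjusted p = 0.00219) and was at 108% of siC in siSRF.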

How the data were processed

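ES-2 cells were transfected with siC, siIGF2BP1 or siSRF for 72 h, 3 libraries each, and groups were taken from the sample labels. Total RNA was depleted of rRNA and sequenced from stranded libraries. The authors clipped reads with Cutadapt 1.14, aligned them with HISAT2 2.1.0 to GRCh38 and counted them on Ensembl genes with featureCounts 1.5.3 (SAMtools 1.5, edgeR 3.18.1 per the labels). The counting mode for strand is not given in the sources used here, so reads of overlapping antisense genes may be included. The authors deposited TMM-scaled FPKM per library in 2 tables with identical siC values. Their columns of fold changes and p-values were not used. Dividing out length and scaling gave whole reads for 100% of values (tolerance 0.01 reads). The lowest member had 3 reads in a library, the median over members of the lowest reads was 152, and 2 members fell under 10 reads.

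The members and gene lists were chosen with earlier results of these data known. Each comparison was fitted by limma 3.58.1 (lmFit, eBayes with trend, R 4.3.3) on log2(FPKM + 0.1). Genes averaging under 0.1 FPKM across its 6 libraries were dropped, with Benjamini-Hochberg adjustment over all genes kept and calls at an adjusted p of at most 0.01, two-sided. Fold changes are on this log2 scale, which understates changes of low genes. The fits were tested on simulated data. Genes named are the 12 highest in siC, the 8 largest called changes without overlap per comparison and direction, a fixed set (its SLC16A3 is no member), the 3 nearest to the minimum on each side and the 5 largest called differences between knockdowns, others being marked. Some of the genes this rule names are not reported here. Alternatives were pseudocounts of 1 and 0.01, other filters and adjustments, median-ratio scaling, limma-voom on recovered reads, robust eBayes, 9 libraries in 1 fit, a replicate block, removal of GC and length trends, and leaving out each library.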

Additional observations from a re-analysis of the deposited data

Results flagged for a closer look

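In 14 members the siIGF2BP1 libraries all lay on one side of the siC libraries and the siSRF libraries all on the other, and the knockdowns differed from each other by limma. These are 8.48% of the 165 members, beside 14.7% of all protein-coding genes of at least 1 FPKM in siC. The log2 difference of siIGF2BP1 minus siSRF was positive in 4 of them. It was 1.08 for the choline carrier SLC44A1, 0.83 for the ADP/ATP exchanger SLC25A6, 0.71 for the zinc importer SLC39A1 and 0.49 for the sulfate carrier SLC26A2. It was negative in the other 10. Among amino acid carriers it was -0.84 for the heavy chain SLC3A2, -0.66 for SLC38A2 and -0.81 for SLC6A15. Among SLC25 carriers it was -1.01 for SLC25A17 and -0.89 for SLC25A32. It was -1.28 for SLC45A4, -1.20 for the metal importer SLC39A14, -0.99 for SLC12A8, -0.86 for the nucleobase carrier SLC43A3 and -0.42 for SLC35E1. SLC25A32, SLC35E1, SLC6A15 and SLC26A2 were named after their values were seen. For SLC25A32 the libraries were at 34.8, 30.3 and 30.99 FPKM in siC, 25.7, 26.8 and 25.6 FPKM in siIGF2BP1 and 48.6, 49.99 and 46.5 FPKM in siSRF.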

How the results depend on the processing

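No called member changed sign under any alternative. Every call of the 3 comparisons remained in limma-voom on recovered reads, which called 30 members lower and 21 higher in siIGF2BP1, 43 and 31 in siSRF, and 46 and 46 between the knockdowns. At an adjusted p of at most 0.05, 24 were lower and 22 higher in siIGF2BP1, 43 lower and 28 higher in siSRF, and 44 lower and 43 higher between the knockdowns. Adjustment over protein-coding genes alone gave 20 higher in siSRF. Leaving out 1 library gave 7 to 11 lower and 1 to 3 higher in siIGF2BP1, 15 to 20 and 7 to 12 in siSRF, and 16 to 24 and 16 to 21 between the knockdowns. Calls in siIGF2BP1 held in all such fits for 7 of 17 lower members (SLC37A4, SLC7A5, SLC39A14, SLC43A3, SLC27A4, SLC3A2 and SLC5A6) and for 1 of 13 higher members. The calls that held in all such fits were 13 of 27 and 7 of 13 in siSRF. These fits hold fewer libraries. A replicate block gave 0 lower and 0 higher in siIGF2BP1 (65 of 165 members at an unadjusted p under 0.05), 10 and 2 in siSRF, and 15 and 13 between the knockdowns. Over genes averaging at least 1 FPKM, deviations of libraries with the same replicate number correlated by -0.04 to 0.02. This shows no deviation shared across these genes, but it cannot tell whether the libraries were prepared in pairs. Membership set by the siIGF2BP1 or siSRF level in place of siC would give 169 or 161 members, sharing 162 or 158 with the 165. Depth limits members near 1 FPKM, of which SLC6A9 and SLC16A13 had 3 reads in their lowest library.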

Other observations

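Solute carrier genes below the membership minimum were also expressed in the knockdowns. Of them, 8 reached a mean of 1 FPKM in a knockdown, 7 in siIGF2BP1 and 3 in siSRF, while 3 members fell under 1 FPKM in siIGF2BP1 and 7 in siSRF. The lactate exporter SLC16A3 (MCT4) was at 0.488, 0.524 and 0.722 FPKM in siC, at 2.19, 1.57 and 1.97 FPKM in siIGF2BP1 and at 0.312, 0.3903 and 0.256 FPKM in siSRF, with no overlap between the 3 groups. It belongs to the set of genes fixed for naming, and by limma it was higher in siIGF2BP1 than in siC (log2 fold change 1.57 ± 0.235 (SE), adjusted p = 0.00742) and than in siSRF (log2 fold change 2.26 ± 0.245 (SE), adjusted p = 0.000885). SLC2A10, of the glucose carrier family, was at 0.606, 0.324 and 0.387 FPKM in siC, at 0.913, 1.34 and 1.04 FPKM in siIGF2BP1 and at 0.168, 0.219 and 0.298 FPKM in siSRF. The anion exchanger SLC26A4 was at 0.392, 0.584 and 0.501 FPKM in siC and at 1.03, 1.04 and 1.26 FPKM in siIGF2BP1. The thiamine carrier SLC19A3 was at 0.796, 0.801 and 0.649 FPKM in siC and at 0.842, 1.26 and 1.55 FPKM in siSRF. SLC2A10, SLC26A4 and SLC19A3 were chosen by the levels given, so no test is attached to them.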
